A study of Mus musculus with 8 samples.

Results

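The genes described here encode the proteins of the cytosolic ribosome. They were chosen by symbol: Rpl or Rps followed by digits and an optional a, x, l or l1, or Rplp0, Rplp1, Rplp2 or Rpsa, without pseudogenes named as such and without the Rps6k kinases. The rule found 86 of 55414 genes in the count table, made up of 43 large subunit genes, 3 genes of the large subunit's acidic stalk (Rplp0, Rplp1 and Rplp2), 30 small subunit genes and 10 paralogs or copies whose symbols end in l or l1. The RNA came from Kupffer cells, which are the liver's own resident macrophages, of wild-type (WT) C57BL/6J mice. Livers were collected 2 h after cecal ligation and puncture (CLP), a mouse model of abdominal sepsis in which gut contents leak from the punctured cecum, or after a sham procedure (Sham), with 4 libraries in each group. The cells were isolated by fluorescence-activated cell sorting, and the sources used here give neither its antibodies nor its gate. Since no label ties each library to a mouse of its own, p-values describe the spread between these samples, which may be technical.

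A ribosome holds 1 copy of nearly every ribosomal protein, joined to ribosomal RNA in a small subunit that reads the mRNA and a large subunit that forms peptide bonds, and the cell therefore makes these proteins in matched amounts. Their mRNAs are among the most abundant in most cells. Most of them begin with a 5′ terminal oligopyrimidine (TOP) stretch, a run of C and T through which mTORC1 and the LARP1 protein control their translation, so that the level of the mRNA and the output of protein can part. In macrophages, signals from bacterial products change both transcription and protein synthesis within hours.

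RefSeq start sites (GRCm38.p6) with flanking sequence were given for 63 of the 86 genes. The following stretches cover 30 bases before and 20 bases after the start on the gene's strand, 5′ to 3′. They were picked to show the C and T run near the start of core genes and of 2 paralogs. The capitals mark the longest unbroken run of C and T found from 10 bases before to 20 bases after the start. Where runs tie, the first is marked.
Rpl28, chr7:4792935-4792984, plus strand: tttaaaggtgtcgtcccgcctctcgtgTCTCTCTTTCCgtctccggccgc
Rpl35, chr2:39005112-39005161, minus strand: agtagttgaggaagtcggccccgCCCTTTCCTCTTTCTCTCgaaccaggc
Rps6, chr4:86857348-86857397, minus strand: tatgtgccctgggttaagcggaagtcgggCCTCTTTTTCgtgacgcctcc
Rps18, chr17:33955646-33955695, minus strand: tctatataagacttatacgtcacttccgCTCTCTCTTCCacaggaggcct
Rps27, chr3:90213629-90213678, minus strand: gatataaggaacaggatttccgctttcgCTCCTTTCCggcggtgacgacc
Rpl22l1, chr3:28805478-28805527, plus strand: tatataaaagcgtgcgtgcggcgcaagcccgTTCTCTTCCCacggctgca
Rpl7l1, chr17:46782637-46782686, minus strand: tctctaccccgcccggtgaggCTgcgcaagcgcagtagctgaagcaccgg
The marked run was 18 bases long at Rpl35 and 2 at Rpl7l1, a paralog. At Rpl7l1 other runs of 2 lay after the start, and longer ones lay further before it.

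A run of at least 8 pyrimidines lay between 10 bases before and 50 bases after a listed start in 45 of these 63 genes (71.4%), against 24.0% of 27025 genes in the RefSeq table, and the median longest run was 10 and 6 bases. CTTTCC lay within 50 bases of the start on the gene's strand in 30.2% of the 63 genes and 5.43% of all genes. CTCTTT was found in the same window in 30.2% and 4.68%, and the motifs can overlap each other. CCGGAAG, the core letters of ETS family sites, was found on either strand of the 300-base window in 39.7% and 9.93%. TATAAA was found on the gene's strand of that window in 11.1% and 9.77%. These motifs were chosen after the sequences were seen, and a match describes letters, not a bound site.

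The libraries held 23311897 to 28724875 counts, and log2 CPM values correlated across genes at 0.968 to 0.972 between CLP replicate 1 and the other CLP libraries, which correlated with each other at 0.986 to 0.987. Results are given under both of 2 scalings. Levels are in CPM, a gene's count relative to the scaled total of its library, scaled with the trimmed mean of M-values (TMM). This method sets the bulk of genes to no net change, with factors of 0.801 to 0.837 in CLP and 1.16 to 1.28 in Sham. Total-count scaling uses the raw totals and moved the median log2 fold change of all 14655 genes tested by -0.56. Of these genes, 24.9% passed as higher and 29.5% as lower with TMM scaling, and 11.7% and 56.6% by total counts. Of 11 Kupffer cell markers tested, 5 passed as higher and 0 as lower with TMM scaling, and their sum was 33863 to 43894 CPM in CLP libraries and 25429 to 32963 CPM in Sham libraries. By total counts 0 passed as higher and 1 as lower, and the sums overlapped, at 28146 to 36718 CPM in CLP libraries and 32529.5 to 38589 CPM in Sham libraries. All 10 neutrophil markers tested passed as higher with TMM scaling and 9 by total counts, with a TMM-scaled sum of 258 to 671 CPM in CLP libraries and 102 to 145 CPM in Sham libraries. Of the 12 on that list, 6 were under 1 CPM in Sham libraries. Of 9 B cell markers, 7 passed as higher and 1 as lower with TMM scaling, and 7 and 2 by total counts, and 6 of the 9 were under 1 CPM in Sham libraries. Their sum was apart in opposite directions under the scalings: with TMM scaling it was 81.2 to 96.4 CPM in CLP libraries and 66.7 to 78.4 CPM in Sham libraries, and by total counts 64.96 to 80.66 CPM in CLP libraries and 85.3 to 94.6 CPM in Sham libraries. Of 7 platelet markers tested, 6 passed as higher under both scalings, and 1 passed as lower by total counts. Of the 8 on that list, 4 were under 1 CPM in Sham libraries. The TMM-scaled sums were 350.2 to 482 CPM in CLP libraries and 247 to 331 CPM in Sham libraries. The sums by total counts overlapped, at 291 to 403 CPM in CLP libraries and 316 to 405 CPM in Sham libraries. Of 8 hepatocyte markers, 1 passed as higher with TMM scaling, with sums of 4667 to 5933 CPM in CLP libraries and 3452 to 4666 CPM in Sham libraries. By total counts 0 hepatocyte markers passed as higher and 4 as lower, with sums of 3879 to 4748 CPM in CLP libraries and 4417 to 5462 CPM in Sham libraries. The platelet marker Gp1bb was at 0 in every library. With TMM scaling 1 of 5 monocyte and 1 of 2 T and NK cell markers tested passed as higher. So did 2 of 8 liver endothelial and 2 of 3 red cell markers, and none was lower. By total counts 1 monocyte marker passed as higher, and 2 monocyte and 4 liver endothelial markers as lower. In Sham libraries 4 of the 7 listed monocyte, 11 of 12 T and NK cell and 6 of 7 red cell markers were under 1 CPM. The part of these cells in the results was not tested, and in bulk samples fewer cells of a type and less RNA per cell cannot be told apart.

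The 86 genes held a small share of all counts, and that share was no higher after CLP. It was 1.08%, 0.853%, 0.984% and 0.874% in the 4 CLP libraries, against 1.09%, 1.12%, 0.956% and 1.18% in the 4 Sham libraries. Counting error alone moves each value by at most 0.0041 percentage points (95% Wilson interval). The groups overlapped, with means of 0.949 ± 0.107% in CLP and 1.09 ± 0.0938% in Sham (SD, n = 4) and a ratio of 0.873. CLP replicates 2 and 4 and Sham replicate 3 had the lowest shares of their groups and also the lowest totals. With the genes at least 4-fold higher in CLP taken out of the totals, the share was 1.13 ± 0.104% in CLP libraries and 1.12 ± 0.0956% in Sham libraries (ratio 1.01). Since these genes were chosen for being higher in CLP, taking them out can only raise the ratio.

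With TMM scaling the same counts gave a higher sum in CLP. The summed level was 12959.6, 10656, 11849 and 10515 CPM in the CLP libraries, against 9407, 9592, 7472 and 9527 CPM in the Sham libraries. All CLP libraries were above all Sham libraries, with a ratio of means of 1.28, and Sham replicate 3 stood lowest. Mitochondrial ribosomal protein genes, whose products serve the separate ribosome of mitochondria, held 0.0670 ± 0.00489% of counts in CLP libraries and 0.120 ± 0.00436% in Sham libraries, a ratio of 0.557. Genes of the respiratory chain and ATP synthase held 0.283 ± 0.0369% in CLP libraries and 0.367 ± 0.0230% in Sham libraries, a ratio of 0.773.

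**Figure D1:**
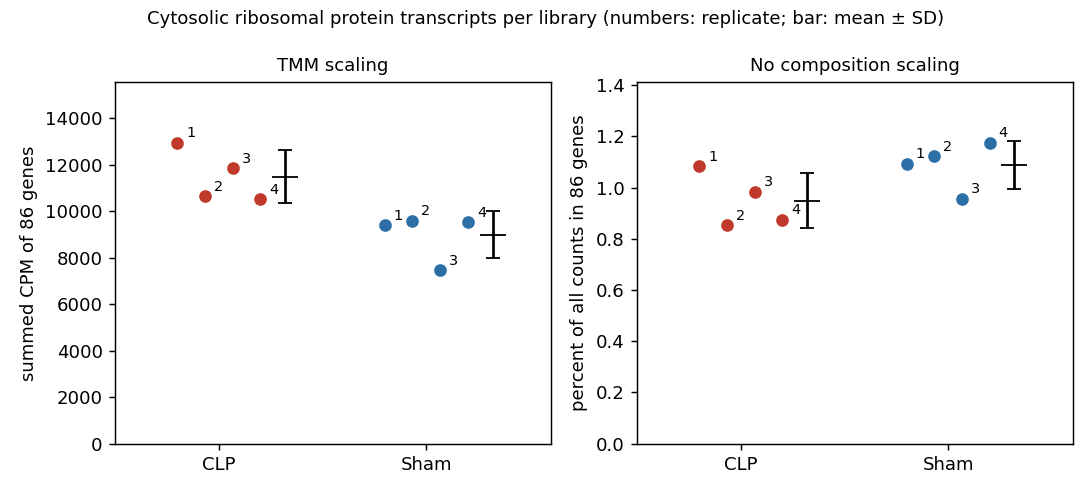
The left panel plots the summed TMM-scaled CPM of the 86 genes and the right panel their percent of all counts, for the 4 CLP and 4 Sham libraries (points, numbered by replicate) with the mean ± SD beside them. The groups are apart on the left, with 10515 to 12959.6 CPM in CLP libraries and 7472 to 9592 CPM in Sham libraries, and overlap on the right.

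Of the 86 genes, 82 passed the filter on low counts. The other 4, Rpl3l, Rpl10l, Rpl32l and Rps12l1, had 0 to 7 counts in any library. With TMM scaling 42 of the 82 (51.2%) passed as higher in CLP by edgeR's quasi-likelihood test with Benjamini-Hochberg adjustment over all genes, against 24.9% of all genes tested. None of the 82 passed as lower, against 29.5% of all genes, and at an unadjusted p under 0.05 edgeR, DESeq2 and limma voom each gave 0 lower members. The median log2 fold change was 0.33, beside -0.04 over all genes. In 44 of the 82 genes every CLP library was above every Sham library, which held for 22.1% of all genes, and in none was every CLP library below, which held for 27.3%. Without Sham replicate 3, 26 members passed as higher, beside 3572 of all 14915 genes tested. Without CLP replicate 3, 28 did, beside 3336 of 15089.

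With total-count scaling 1 of the 82 passed as higher, against 11.7% of all genes, and 13 passed as lower (15.9%), against 56.6% of all genes. The median was -0.22, beside -0.60 over all genes. Every CLP library was below every Sham library in 8 of the 82, against 51.9% of all genes, and above in 1, against 9.48%. With single libraries left out, lower genes were counted among the members only, so no share over all genes stands beside these counts. Lower members numbered 44 without CLP replicate 1 and 19 without Sham replicate 3. Without CLP replicate 2 or 4, or Sham replicate 1, 2 or 4, they numbered 5 to 7. The direction of the members as a group therefore depended on the scaling. A scaling moves all genes by nearly the same amount, so their place among all genes could hardly change with it: 81 of 82 lay above the median of all genes under both scalings, as 50% of all genes do by construction, and their median was 0.37 above it under both.

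**Figure D2:**
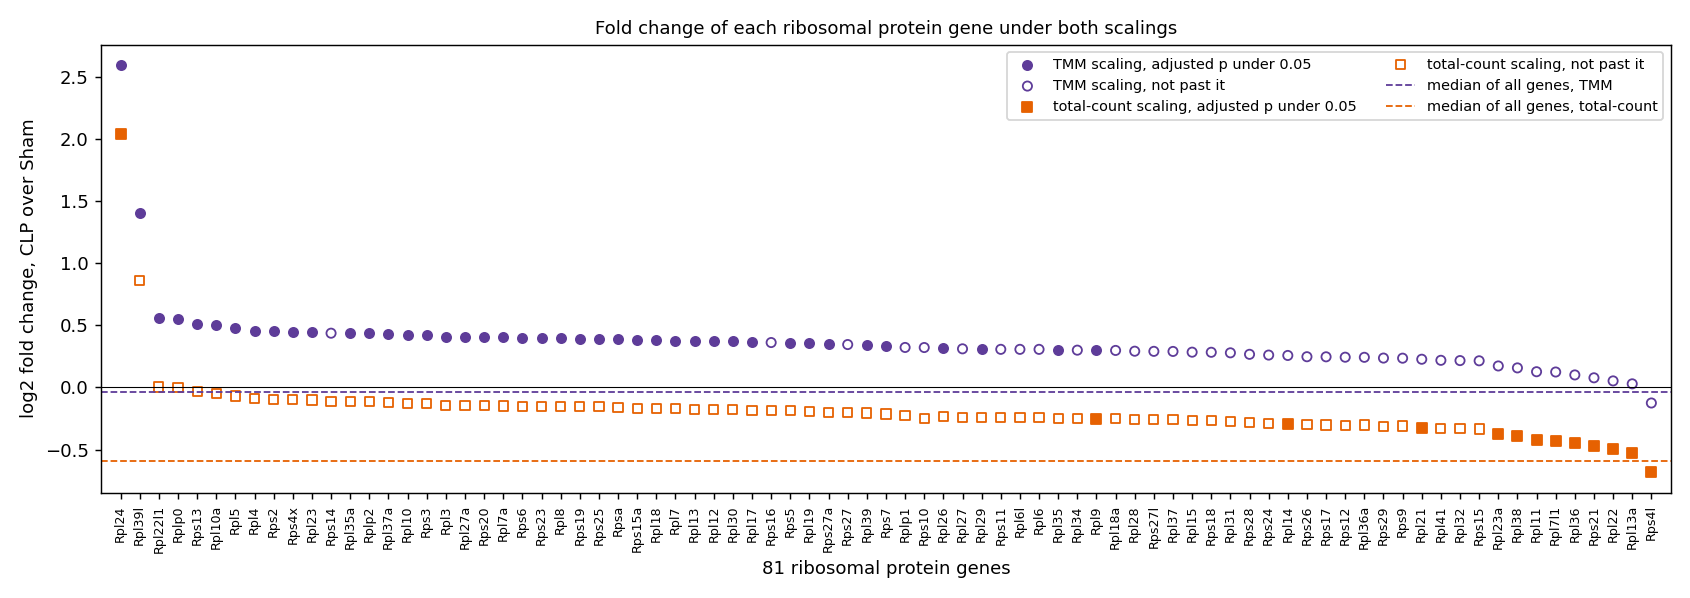
Of the 82 genes tested, 81 are plotted by log2 fold change, CLP over Sham, with TMM scaling (circles) and total-count scaling (squares), filled where the edgeR adjusted p was under 0.05. Dashed lines are the medians of all 14655 genes, at -0.04 and -0.60. Apart from Rpl24 and Rpl39l at the left and Rps4l at the right, the genes form a flat row between these lines and 0.56.

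The members moved within a narrow band. The 10th to 90th percentile of their log2 fold changes ran from 0.18 to 0.46 with TMM scaling, beside -1.39 to 1.26 over all genes. By subunit, 24 of 43 large subunit genes, 2 of 3 stalk genes, 14 of 30 small subunit genes and 2 of 6 tested paralogs and copies passed as higher, with medians of 0.31, 0.43, 0.35 and 0.30. Under total-count scaling 9, 0, 2 and 2 of them passed as lower. The shares of all genes were 24.9% higher with TMM scaling and 56.6% lower with total-count scaling. The ratio of large subunit and stalk counts to small subunit counts was 1.29, 1.32, 1.31 and 1.33 in CLP libraries and 1.27, 1.31, 1.32 and 1.26 in Sham libraries, so the groups overlapped.

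Within each group, the same libraries were highest or lowest in many members. CLP replicate 1 was the highest of the CLP libraries in 64 of 82 genes, and CLP replicates 2 and 4 were the lowest in 41 and 36. Sham replicate 3 was the lowest of the Sham libraries in 74 of 82. The same counts were not taken over all genes, so whether this pattern was particular to the members was not tested. Each library was also scaled by its own summed member counts, a setting added after the data were seen. With it 1 member passed as higher (13.1% of all genes did) and 2 as lower (42.9%). This scaling makes the members' sum equal in every library. The small counts are therefore largely built in and cannot show whether the members moved together.

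**Figure D3:**
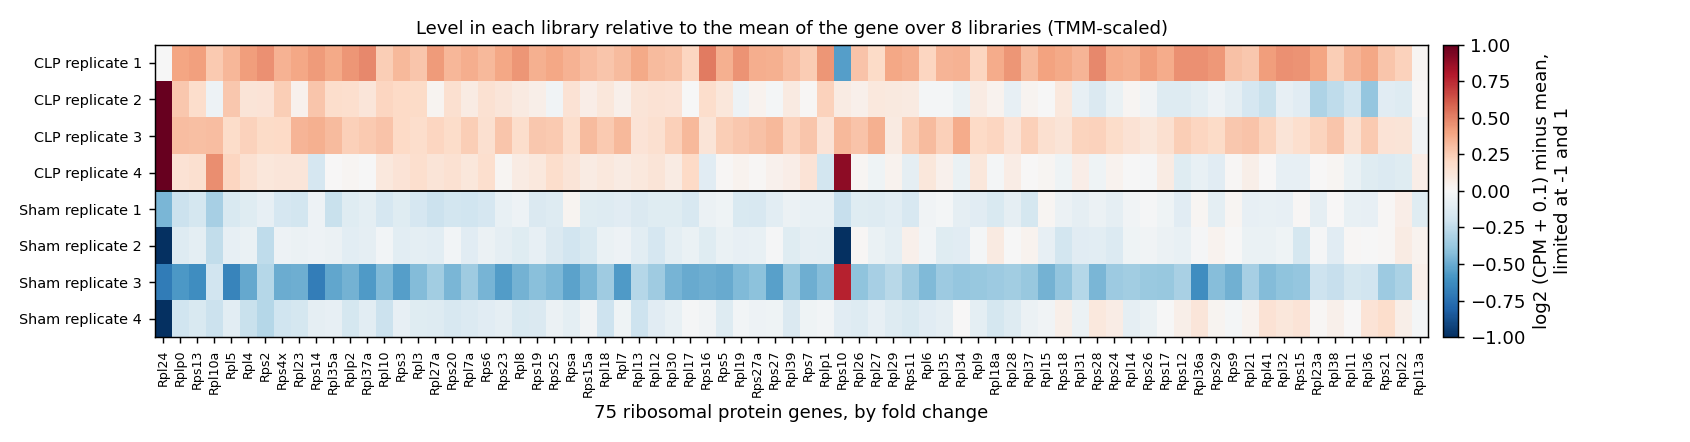
Colour gives the log2 of (TMM-scaled CPM + 0.1) in each library minus the gene's mean over the 8 libraries, for 75 core genes ordered by fold change, with CLP libraries above Sham libraries. The row of CLP replicate 1 is the reddest and that of Sham replicate 3 the bluest over most genes. Rpl24 and Rps10 depart from the common pattern.

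Among the large subunit genes, Rpl4, a protein of the peptide exit tunnel, had the highest mean level. It was at 570.1, 467, 499.9 and 474 CPM in CLP libraries and 391, 407, 299.5 and 367 CPM in Sham libraries, with a log2 fold change of 0.46 ± 0.13 (approximate SE; edgeR adjusted p = 0.0117). The groups did not overlap with TMM scaling, and with total-count scaling the log2 fold change was -0.09. Rpl3, which lies at the peptidyl transferase centre, averaged 277 ± 9.85 CPM in CLP libraries and 209 ± 21.6 CPM in Sham libraries (SD, n = 4).

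Rpl5 and Rpl11 form, with 5S ribosomal RNA, the particle that binds and inhibits MDM2 when ribosome assembly fails. They did not give the same call. Rpl5 was at 136, 131, 124 and 126 CPM in CLP libraries and 97.8, 102, 68.8 and 101 CPM in Sham libraries, with a log2 fold change of 0.48 ± 0.13 (edgeR adjusted p = 0.0105). Rpl11 was at 98.8, 68.0, 86.9 and 74.6 CPM in CLP libraries and 74.2, 78.9, 69.1 and 78.4 CPM in Sham libraries, and its groups overlapped (0.13 ± 0.13, edgeR adjusted p = 0.415). With total-count scaling Rpl11 was among the lower members (-0.42, edgeR adjusted p = 0.0148), and Rpl5 was not called (-0.07, edgeR adjusted p = 0.634). The difference between Rpl5 and Rpl11 was not tested.

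Rpl10a, the protein of the large subunit's L1 stalk, rose with TMM scaling. It was at 45.4, 36.5, 46.8 and 52.2 CPM in CLP libraries and 30.1, 31.9, 33.1 and 32.6 CPM in Sham libraries (log2 fold change 0.50 ± 0.12, edgeR adjusted p = 0.00428). CLP replicate 4 was highest, unlike in most members, and with total-count scaling the log2 fold change was -0.05. Rpl35a, a gene mutated in Diamond-Blackfan anaemia in humans, was at 81.0 ± 9.16 CPM in CLP libraries and 59.9 ± 8.37 CPM in Sham libraries (SD, n = 4; 0.44 ± 0.13, edgeR adjusted p = 0.0151).

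The stalk proteins recruit translation factors to the ribosome. Rplp0, the stalk's base, was at 487, 446, 459 and 409.6 CPM in CLP libraries and 319.6, 339, 248 and 323 CPM in Sham libraries. Its groups were apart, with a log2 fold change of 0.55 ± 0.13 (edgeR adjusted p = 0.00364). By total counts the value was 0.00. Rplp2 was at 215, 178, 187 and 161 CPM in CLP libraries and 146, 147, 114 and 140.4 CPM in Sham libraries (0.43 ± 0.13, edgeR adjusted p = 0.0137). Rplp1 did not pass: CLP replicate 4, at 277 CPM, lay within the Sham range, while the other CLP libraries had 426, 369 and 346 CPM and the Sham libraries 299, 294, 234 and 308 CPM (0.32 ± 0.15, edgeR adjusted p = 0.0904).

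In the small subunit, Rps13 gave the largest rise. It was at 183, 155, 169.7 and 153 CPM in CLP libraries and 122, 129, 89.1 and 123 CPM in Sham libraries (log2 fold change 0.51 ± 0.13, edgeR adjusted p = 0.00716). Rps6, the substrate of S6 kinase downstream of mTORC1, was at 122, 108, 109 and 109.6 CPM in CLP libraries and 86.8, 93.2, 70.3 and 89.9 CPM in Sham libraries (0.40 ± 0.11, edgeR adjusted p = 0.0115). In both genes the groups did not overlap with TMM scaling, and with total-count scaling the log2 fold changes were -0.03 and -0.15.

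Rps3, which also binds the p65 subunit of NF-kB, averaged 313 ± 17.8 CPM in CLP libraries and 234 ± 33.4 CPM in Sham libraries (SD, n = 4; 0.42 ± 0.13, edgeR adjusted p = 0.0164). Rps19, the gene most often mutated in Diamond-Blackfan anaemia in humans, averaged 123 ± 11.9 CPM in CLP libraries and 93.4 ± 9.19 CPM in Sham libraries (0.39 ± 0.11, edgeR adjusted p = 0.0129). Rpsa, also known as the laminin receptor, averaged 290.3 ± 20.6 CPM in CLP libraries and 222 ± 35.2 CPM in Sham libraries (0.39 ± 0.13, edgeR adjusted p = 0.0296), and its adjusted p rose to 0.0503 to 0.0747 without CLP replicate 2 or 3 or Sham replicate 2, 3 or 4.

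Relative to the other members, 2 genes were lower. With scaling by the summed member counts, Rpl22, an RNA-binding protein that the ribosome can do without, was lower (log2 fold change -0.30, edgeR adjusted p = 0.0231), as was Rps21, a small subunit protein (-0.28, edgeR adjusted p = 0.0434). Rpl22 was at 55.4, 43.1, 51.5 and 43.3 CPM in CLP libraries and 49.4, 49.9, 37.9 and 49.3 CPM in Sham libraries with TMM scaling, where the groups overlapped. Rps21 was at 99.4, 75.8, 90.3 and 74.6 CPM in CLP libraries and 82.9, 82.6, 63.9 and 92.9 CPM in Sham libraries, again with overlap. Rps21 was named after its values were seen. Both calls depended on single libraries: without 1 library this scaling gave 0 to 3 lower members, with 0 when CLP replicate 2 or 4 or Sham replicate 1, 2 or 4 was left out.

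The 13 members lower with total-count scaling included Rpl9, Rpl11, Rpl13a, Rpl14, Rpl21, Rpl22, Rpl23a, Rpl36, Rpl38, Rpl7l1, Rps4l and Rps21. Of the 13, 12 were not called with TMM scaling. Rpl9 was called in opposite directions, as higher with TMM scaling (log2 fold change 0.30, edgeR adjusted p = 0.0371) and lower with total-count scaling (-0.25, edgeR adjusted p = 0.0456). Its TMM-scaled level was 216, 197, 214 and 201 CPM in CLP libraries and 172, 184, 143 and 174 CPM in Sham libraries. Rpl9 was named after its values were seen, and its call was lost when any 1 library other than CLP replicate 1 or Sham replicate 2 was left out (edgeR adjusted p up to 0.0828). Of the 42 genes higher with TMM scaling, 40 were not called with total-count scaling and 1, Rpl24, was higher there too.

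Rpl24, named after its values were seen, carried the largest fold change and one of the lowest levels. It had 21, 50, 49 and 72 counts in CLP and 20, 5, 15 and 8 counts in Sham. The log2 fold change was 2.60 ± 0.51 with TMM scaling (edgeR adjusted p = 0.00146) and 2.04 by total counts (edgeR adjusted p = 0.00454), and CLP replicate 1 had about as many counts as Sham replicate 1. The gene shares 47.0% of its exon bases with Gm28037 in the GENCODE M21 annotation. Gm28037 had 0 counts in every library.

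Rpl13a and Rps10 were likewise low and likewise overlapped by another gene. Rpl13a, a subunit of the GAIT complex that represses translation of inflammatory mRNAs in human myeloid cells, was at 10.6, 10.6, 10.2 and 11.0 CPM in CLP libraries and 9.62, 10.7, 10.9 and 10.4 CPM in Sham libraries (log2 fold change 0.03 ± 0.12, edgeR adjusted p = 0.845). Rps10, named after its values were seen, had 26, 33, 45 and 64 counts in CLP and 45, 22, 85 and 49 counts in Sham. They share 29.4% and 20.6% of their exon bases with Gm45713 and RPS10-NUDT3, each at 0 counts in every library. Reads that fall in overlapping genes may have been left out of the count, whose settings the sources used here do not state, so the levels and changes of Rpl24, Rpl13a and Rps10 are uncertain.

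Per kilobase of transcript, the level of the 76 core genes tested had a median of 175 CPM per kb in CLP and 138 CPM per kb in Sham. The highest were Rps29, at 792 CPM per kb in CLP and 672 in Sham, Rplp1, at 711 in CLP and 568 in Sham, and Rplp2, at 440.1 in CLP and 326 in Sham. The lowest were Rpl24, Rps10 and Rpl13a, at 3.42, 2.81 and 10.1 CPM per kb in CLP and 0.558, 2.24 and 9.93 in Sham. The order of the core genes was nearly the same in CLP and Sham (Spearman's rho = 0.993 across 76 genes, which share libraries and are not independent replicates). Lengths were of 1 annotated transcript per gene, such as 3706 bases for Rps20, whose coding sequence has 357. The sources used here do not state how reads with several matches were counted, so the ranking of genes by level is uncertain.

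Within the members, longer coding sequences went with larger fold changes: Spearman's rho was 0.30 with coding length and -0.24 with transcript GC content across 80 protein-coding members, beside -0.01 and -0.07 across 12417 protein-coding genes. The same values were -0.19 and -0.19 for respiratory chain and ATP synthase genes and -0.04 and -0.02 for mitochondrial ribosomal protein genes. The libraries also differed in this within groups. The ratio of counts in the 38 core genes with coding sequences of at least 462 bases to the 38 shorter ones was 1.37, 1.49, 1.43 and 1.55 in CLP and 1.40, 1.42, 1.43 and 1.34 in Sham. The groups overlapped, and CLP replicates 2 and 4, which had the lowest member shares, had the highest ratios.

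Paralogs can replace a core protein in particular tissues or states, and the ratio of a paralog to its parent within a library does not depend on scaling. Of 7 planned pairs in the table, 5 had enough counts for an exact permutation test, where the smallest two-sided p is 0.0286, and none passed after adjustment over the 5. Rpl22l1, the paralog of Rpl22 that RPL22 protein represses in mice, was at 18.7, 23.3, 18.8 and 27.7 CPM in CLP libraries and 15.0, 14.8, 14.5 and 15.7 CPM in Sham libraries (log2 fold change 0.56 ± 0.14, edgeR adjusted p = 0.00670); by total counts the value was 0.00. Per 100 counts of Rpl22 it had 33.8, 53.9, 36.4 and 64.0 counts in CLP and 30.4, 29.6, 38.2 and 31.9 in Sham. CLP replicates 2 and 4 were above all Sham libraries and the other CLP libraries were not (difference in log2 ratio 0.49, exact permutation p = 0.0857, adjusted p = 0.143).

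Rpl7l1, whose product acts in ribosome assembly, had 17.4, 19.3, 17.6 and 16.7 counts per 100 of Rpl7 in CLP and 22.3, 19.4, 26.4 and 18.0 in Sham. The difference in log2 ratio was -0.26, with overlap (exact permutation p = 0.0571, adjusted p = 0.143). Rpl7l1 itself was at 54.3, 50.2, 55.2 and 44.2 CPM in CLP libraries and 51.8, 47.1, 44.6 and 43.7 CPM in Sham libraries, which did not pass (edgeR adjusted p = 0.344). Rpl7 passed as higher with all libraries (0.38, edgeR adjusted p = 0.0422) but not without any 1 of CLP replicates 1 and 3 or the Sham libraries (edgeR adjusted p up to 0.103).

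Rpl39l, known from the male germ line of mice, had 34, 10, 69 and 31 counts in CLP and 21, 20, 16 and 23 counts in Sham. CLP replicate 2 lay below all Sham libraries. The fold change passed with TMM scaling (1.41 ± 0.45, edgeR adjusted p = 0.0226) but not without CLP replicate 3 (0.89, edgeR adjusted p = 0.0868), without Sham replicate 3 (edgeR adjusted p = 0.0532) or with total-count scaling (0.86, edgeR adjusted p = 0.117). Its ratio to Rpl39 differed by 0.79 (exact permutation p = 0.143, adjusted p = 0.179).

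Rps4l, a processed copy of Rps4x annotated as a transcribed pseudogene, was the only member tested with a negative log2 fold change under TMM scaling (-0.13 ± 0.24, edgeR adjusted p = 0.681), and it was positive without CLP replicate 2. It had 3.61, 1.83, 2.64 and 2.07 counts per 100 of Rps4x in CLP and 2.95, 3.38, 5.49 and 3.90 in Sham (difference in log2 ratio -0.64, exact permutation p = 0.0857, adjusted p = 0.143). Rps27l, a paralog induced by p53, had 20.7 to 22.6 counts per 100 of Rps27 in CLP and 18.4 to 27.2 in Sham (-0.06, exact permutation p = 0.629). Rpl6l, a processed copy of Rpl6 and a pair added after the data were seen, had 6.86 to 7.83 counts per 100 in CLP and 6.88 to 8.24 in Sham (0.01, exact permutation p = 0.886). Reads of copies such as Rps4l and Rpl6l may have come from their parents, so their values are uncertain. Rows named as ribosomal protein pseudogenes, 300 in all, held counts equal to 0.207% to 0.265% of the members' counts in CLP and 0.228% to 0.290% in Sham.

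**Figure D4:**
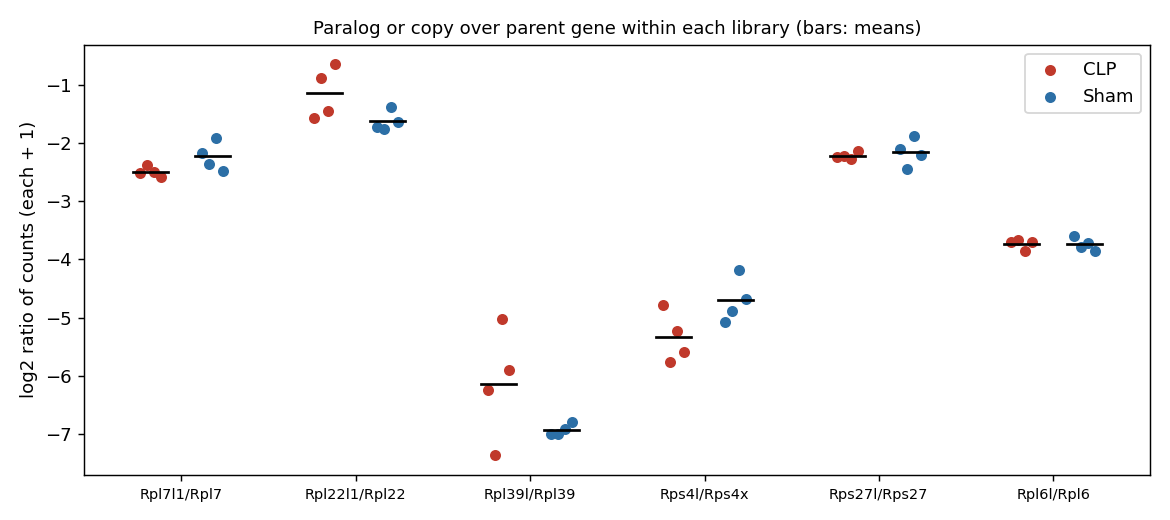
Points give the log2 ratio of paralog (or copy) to parent counts, each plus 1, in the 4 CLP and 4 Sham libraries, with bars at the means. The groups overlap in each of the 6 pairs, and the CLP libraries spread widest for Rpl39l.

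The rule leaves out ribosomal protein genes with other names. Of 6 such genes 5 were tested, and 2 passed as higher with TMM scaling (median log2 fold change 0.41) and 0 in either direction by total counts (median -0.14). The shares of all genes were 24.9% higher and 29.5% lower with TMM scaling, and 11.7% and 56.6% by total counts. Rps3a1, a small subunit protein, averaged 185 ± 10.8 CPM in CLP libraries and 128 ± 22.1 CPM in Sham libraries (SD, n = 4; log2 fold change 0.53 ± 0.14, edgeR adjusted p = 0.0067), and Rack1, a scaffold on the small subunit's head, 448 ± 21.4 CPM in CLP libraries and 337 ± 26.8 CPM in Sham libraries (0.41 ± 0.11, edgeR adjusted p = 0.00751). Fau, which encodes Rps30 fused to a ubiquitin-like protein, gave 0.35 (edgeR adjusted p = 0.0521). Rpl36al was under 1 CPM in both groups, and Rps27rt was not tested.

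Translation factors with TOP mRNAs had the same median as the members. Of 24 tested, 13 passed as higher and 2 as lower with TMM scaling (median log2 fold change 0.33), where 24.9% of all genes were higher and 29.5% lower. With total-count scaling 1 passed as higher and 9 as lower, where 11.7% of all genes were higher and 56.6% lower. The smallest p-values were those of Btf3, a factor that binds nascent chains (0.74), Hnrnpa1, an RNA-binding protein (0.80), and Tpt1, a growth-related protein (0.73), with edgeR adjusted p-values of 1.2e-04, 1.2e-04 and 6.9e-04.

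Ribosome assembly factors were spread far wider than the ribosomal proteins. Of 81 tested, 32 passed as higher and 15 as lower with TMM scaling (median 0.16), and 14 and 45 with total-count scaling. Among all genes 24.9% were higher and 29.5% lower with TMM scaling, and 11.7% and 56.6% with total-count scaling. Eif6, which keeps immature large subunits from joining small ones, was at 156 ± 6.79 CPM in CLP libraries and 35.2 ± 5.04 CPM in Sham libraries (SD, n = 4; log2 fold change 2.15 ± 0.12). Nop58, a core protein of the box C/D particles that methylate ribosomal RNA, was at 71.4 ± 8.86 CPM in CLP libraries and 23.9 ± 2.36 CPM in Sham libraries (1.58 ± 0.12), and Rrs1, which helps load 5S ribosomal RNA, at 53.4 ± 6.16 CPM in CLP libraries and 15.4 ± 3.16 CPM in Sham libraries (1.80 ± 0.16). All 3 were past the threshold under both scalings.

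RNA polymerase I makes ribosomal RNA. Of 17 genes of its machinery tested, 3 passed as higher and 7 as lower with TMM scaling (median -0.29), where 24.9% of all genes were higher and 29.5% lower. With total-count scaling 0 passed as higher and 13 as lower (median -0.85), where 11.7% of all genes were higher and 56.6% lower. The subunit genes Cd3eap and Polr1b had log2 fold changes of -1.49 ± 0.19 and -1.02 ± 0.15, and Polr2e, a subunit shared with the other nuclear polymerases, -0.95 ± 0.16 (edgeR adjusted p between 1.0e-04 and 4.9e-04). Ribosomal RNA was not measured.

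Of 17 genes that control ribosome production, 4 passed as higher and 3 as lower with TMM scaling (median -0.01), and 2 as higher and 13 as lower with total-count scaling (median -0.56), beside the shares of all genes given for the polymerase. Mdm2, the p53 ligase that Rpl5 and Rpl11 bind, was at 411 ± 58.1 CPM in CLP libraries and 81.4 ± 10.3 CPM in Sham libraries (log2 fold change 2.33 ± 0.14, SD, n = 4). Larp4, an mRNA-binding protein, gave 0.87 ± 0.11. Mdm2 and Larp4 passed as higher under both scalings, while Ddit4, an inhibitor of mTORC1, was lower under both.

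Mitochondrial ribosomal proteins had lower medians than the cytosolic ones under both scalings. Of 77 tested, 5 passed as higher and 37 as lower with TMM scaling (median -0.34, beside 0.33 for the cytosolic genes), and 1 and 67 with total-count scaling (median -0.89, beside -0.22). Mrpl52 stood out as higher, at 59.9 ± 7.50 CPM in CLP libraries and 17.0 ± 3.66 CPM in Sham libraries (1.82 ± 0.16), while Mrps35 (-1.57 ± 0.15) and Mrps6 (-1.75 ± 0.19) were lower. Of 78 respiratory chain and ATP synthase genes tested, 7 passed as higher and 3 as lower with TMM scaling (median 0.08). With total-count scaling 0 of them passed as higher and 54 as lower. For both lists, the shares of all genes were 24.9% higher and 29.5% lower with TMM scaling, and 11.7% and 56.6% with total-count scaling. The differences between these lists were not tested.

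**Figure D5:**
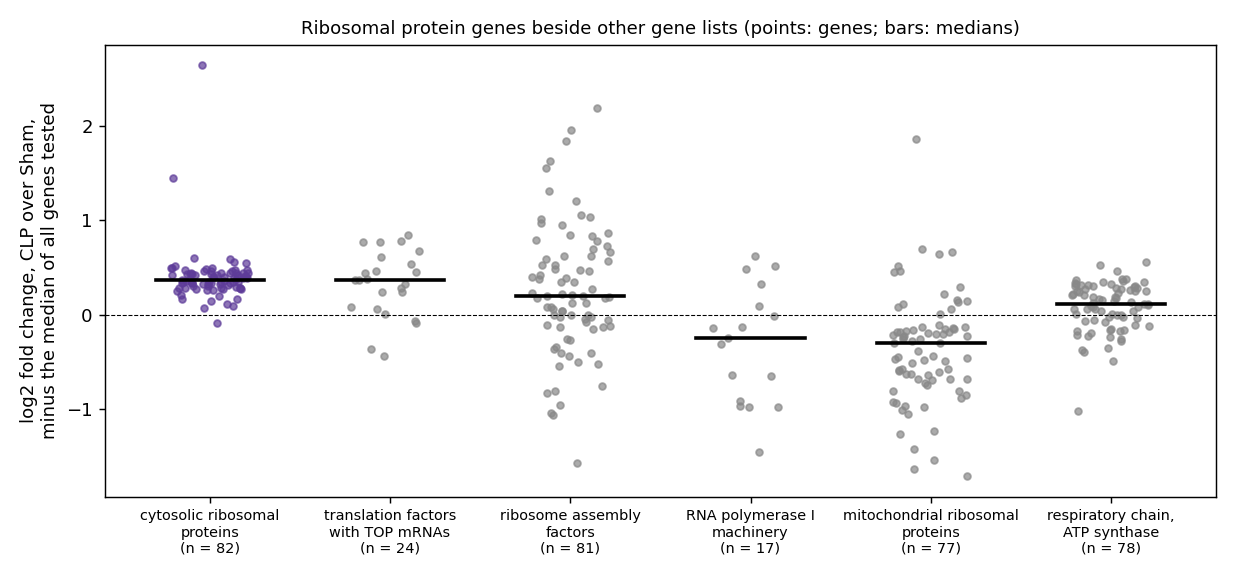
Each point is a gene, plotted by its log2 fold change (CLP over Sham, TMM scaling) minus the median of all genes tested, and bars are list medians. Apart from Rpl24 and Rpl39l above it and Rps4l below it, the cytosolic ribosomal protein genes lie in a narrow band around 0.37. Assembly factors and mitochondrial ribosomal proteins spread from below -1 to above 1.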

How the data were processed

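The authors deposited 1 table of whole-number read counts per Ensembl gene for the 8 libraries. Per the submitters' processing notes, the tools were FastQC, STAR 2.7.10b, featureCounts and DESeq2, with the mouse build mm39. Settings, annotation release and strand option of the count: not given in the sources used here. RNA came from the Aurum kit and libraries from the stranded TruSeq kit, per the labels' protocols.

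Symbols (for 52081 of 55414 IDs, holding 99.8% of counts), biotypes, lengths and GC content were taken from GENCODE M21 on GRCm38, and start sites from RefSeq. The members, lists and motifs were chosen with earlier results of these data known. After filterByExpr, counts were TMM-scaled and fitted with edgeR 4.0.16 (R 4.3.3, robust quasi-likelihood F-test, surgery as the only term), with Benjamini-Hochberg adjustment over 14655 genes at 0.05. The approximate SE is the absolute log2 fold change divided by the root of F. Named members were the 3 most abundant, up to 5 rises and 5 falls of the greatest size among those past the threshold with at least 10 CPM and no overlap, paralogs with their parents, the stalk genes, Rpsa and members with a known further role. Other genes are the 3 smallest p-values of each list. Alternatives used total-count, upper-quartile, member-sum and DESeq2 scaling, DESeq2 1.42.0, limma voom 3.58.1, a GC correction, a replicate block, no filter and single libraries left out. The fits were tested on simulated data. Values of 2 genes are not reported here.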

Additional observations from a re-analysis of the deposited data

Results flagged for a closer look

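Of 78 groups of 4 libraries checked, 7 held a library whose gap to its neighbour took up most of the group's range. Chance gives this in about 1 in 20 independent groups. The groups checked share the same libraries and are not independent, so the 7 cannot be judged against that rate. Sham replicate 3 was the library set apart in 5 of the 7. Its TMM-scaled level was 37.9 CPM for Rpl22, with the other Sham libraries at 49.3 to 49.9 CPM, and 68.8 CPM for Rpl5, with the others at 97.8 to 102 CPM. For Rpl7 it was 169 CPM, with the others at 232 to 243 CPM, for Rps13 89.1 CPM, with the others at 122 to 129 CPM, and for Rps3 184 CPM, with the others at 248 to 254 CPM. CLP replicate 1 was set apart upward for Rps6, at 122 CPM with the other CLP libraries at 108 to 109.6 CPM. The log2 ratio of Rpl6l to Rpl6 was -3.86 in CLP replicate 3 and -3.70 to -3.67 in the other CLP libraries. Sham replicate 3 had the lowest total count and the highest TMM factor (1.28) of all libraries, and the part of these in the flagged values was not tested.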

How the results depend on the processing

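The count of 42 members higher depended on scaling. It was 1 with total-count scaling (1 to 2 without single libraries), 1 with member-sum scaling (1 to 2), 24 with upper-quartile scaling, 19 with no filter on low counts and 26 to 44 without single libraries. It was 56 with DESeq2 size factors, 59 with the DESeq2 test, 61 with the GC correction (including all 42), 45 with TMM factors set without the members and 39 with limma voom. The replicate block gave 32. To check for pairing, each gene's group mean was subtracted and the deviations of CLP and Sham libraries were correlated. Same-numbered libraries gave 0.17, -0.12, 0.13 and -0.09, and differently numbered ones -0.41 to 0.33, so the numbers were not treated as pairs. Lower members numbered 13 with total-count scaling (44, 5, 9 and 6 without CLP replicates 1 to 4 and 7, 6, 19 and 5 without Sham replicates 1 to 4) and 2 with member-sum scaling (0 to 3). Without single libraries, all genes were not counted under these 2 scalings. Over all genes, total-count scaling gave 1715 higher and 8292 lower, in place of 3644 and 4319. Higher genes numbered 3139 of 14655 with upper-quartile scaling and 3622 of 27561 with no filter, where 86 members were tested. DESeq2 size factors gave 4021 higher genes, the DESeq2 test 4251, the GC correction 4249 and TMM factors without the members 3755. There were 3578 with limma voom, 3491 with the replicate block and 3244 to 4235 without single libraries. The median of the members reversed to -0.22 with total-count scaling, and the ratio of shares moved to 1.01 without the genes 4-fold higher.

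Of the log2 fold changes of named members, those of Rpl10, Rpl10a, Rpl11, Rpl13a, Rpl22, Rpl3, Rpl35a, Rpl39, Rpl4, Rpl5, Rpl6, Rpl6l, Rpl7, Rpl7l1 and Rpl9 became negative by total counts: -0.13, -0.052, -0.42, -0.53, -0.50, -0.14, -0.11, -0.21, -0.091, -0.068, -0.24, -0.24, -0.17, -0.43 and -0.25. So did Rplp1, Rplp2, Rps10, Rps13, Rps19, Rps21, Rps27, Rps27l, Rps3, Rps4x, Rps6 and Rpsa, at -0.23, -0.11, -0.25, -0.035, -0.16, -0.47, -0.20, -0.26, -0.13, -0.10, -0.15 and -0.16. With member-sum scaling the negative values were -0.24 for Rpl11, -0.33 for Rpl13a, -0.30 for Rpl22, -0.0099 for Rpl39, -0.042 for Rpl6 and Rpl6l, -0.24 for Rpl7l1, -0.049 for Rpl9, -0.034 for Rplp1, -0.068 for Rps10, -0.072 for Rps27l, -0.28 for Rps21 and -0.0040 for Rps27. With upper-quartile scaling Rpl13a, Rpl22 and Rps21 gave -0.075, -0.051 and -0.027, and with no filter Rpl13a and Rpl22 gave -0.026 and -0.0024. Rps4l turned positive with the GC correction (0.098). Without single libraries the values ran from -0.40 to 0.0083 for Rps4l, -0.033 to 0.11 for Rpl22 and -0.017 to 0.16 for Rps21. The log2 ratio difference ran from -0.16 to 0.031 for Rps27l/Rps27 and from -0.031 to 0.055 for Rpl6l/Rpl6. The cause of these shifts was not tested. Of the other values for named members under single alternatives, 454 kept direction and call, 52 lost a call and 19 gained one. Depth limits Rpl24, Rps10 and Rpl39l, with 5 to 85 counts per library.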
